A study of Mus musculus with 12 samples.

Results

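Gene expression was compared between bone marrow macrophages of IRAK4 kinase-dead (KD) mice and of wild-type (WT) mice after 4 h with lipopolysaccharide (LPS). The comparison uses 4 of the 12 arrays of the series. They are all the arrays labelled LPS 4 h, 2 for KD and 2 for WT, and were chosen by label alone. All 4 cultures received LPS at 1 µg/ml for 4 h. The cells were grown in macrophage serum-free medium with 10% fetal calf serum and 30% conditioned medium of L-929 cells, a fibroblast line that secretes the macrophage growth factor CSF1. The other 8 arrays held both strains kept for 4 h without LPS and both strains after 1 h of LPS, 2 arrays each. The labels name the 2 arrays of a group replicates and do not say whether they came from separate animals, so p-values here measure the spread between these arrays, which may be technical. Neither the allele that makes IRAK4 kinase-dead nor the strain background, sex or age of the mice is given in the labels. A total of 12460 autosomal genes could be compared, 71.6% of the 17401 with a probe set. Genes of the sex chromosomes and mitochondria were left out.

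IRAK4 is a serine/threonine kinase that joins the adaptor MyD88 in the signalling platform, called the myddosome, that forms when Toll-like receptors or the interleukin-1 receptor are engaged. LPS is sensed by Toll-like receptor 4, which signals through MyD88 to NF-κB and the MAP kinases. A separate adaptor, TRIF (gene Ticam1), leads from the same receptor to the transcription factor IRF3 and type I interferon. In macrophages the MyD88 arm is known for rapid induction of inflammatory cytokines. Interferon made through the TRIF arm acts back on the cells to induce antiviral genes.

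Values are signals of Affymetrix probe sets, which target transcripts mostly at their 3′ ends, and each gene is given by the probe set with its highest mean. Differences are on the scale log2(signal + 4.4), KD minus WT, followed by the standard error (SE) of the fit. Adding 4.4 shrinks the fold change of genes whose signal is low. A gene was called when limma's p-value, adjusted by the Benjamini-Hochberg method over all probe sets tested, was under 0.05. The median signal was 20.4 and 18.9 on the WT arrays and 24.9 and 24.2 on the KD arrays, at the same trimmed mean of 150. Over the whole series it was 18.9 to 22 in WT and 24.2 to 26.9 in KD. This gap in the low signals moved with the strain in every condition. Its part in the results was not tested beyond quantile normalization, which makes the distributions of all arrays equal. Spearman's correlation of the 2 replicates over tested probe sets was 0.9558 in WT and 0.9458 in KD at 4 h. The Irak4 transcript was not analysed here, since 0 probe sets carried its symbol. The targeted gene therefore gave no check of which arrays were KD.

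At 4 h, 557 genes were called higher in KD (4.47% of those tested) and 333 were called lower (2.67%), 890 in either direction (7.14%). The median difference over all genes was 0.10. Of these, 215 were at least 2-fold higher and 90 at least 2-fold lower on this scale. The genes called lower were strongly expressed, with a median signal of 1060 in WT and 596 in KD. They included interleukins, chemokines, inflammasome and NF-κB feedback genes. Genes called higher had a median signal of 146 in WT and 254 in KD, and cell cycle genes, Fos and Maf were among them. In 78 of the 557 (14%) the WT mean was under 23.4, the median of all values. Among the 3115 genes with the lowest signal the median difference was 0.38, with 43 genes called higher and 5 lower. Among the 3115 with the highest signal it was -0.02, with 173 called higher and 241 lower. The KD and WT arrays did not overlap for any of the 890 called genes. Over all genes tested, KD lay above WT for 35.2% and below it for 19.2%. Without a variance prior that follows signal, 321 genes were called, 222 higher and 99 lower. Without WT array 1, WT array 2, KD array 1 or KD array 2 (the LPS 4 h replicates of those numbers), 349, 546, 361 or 427 genes were called. Counts with 1 of the 4 arrays left out are given in this order throughout, and the lone array of a strain is then assumed to vary like the other groups. The probe set of median signal was also tried in place of the one with the highest mean, and calls that it ended are given beside the genes. Genes without a call are given by their probe set of highest mean alone, so a missing call covers that probe set only. A difference could be larger or smaller on the other set, as for Ptgs2 (-0.39 and -2.72) and Gins2 (0.97 and -0.01).

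**Figure D1:**
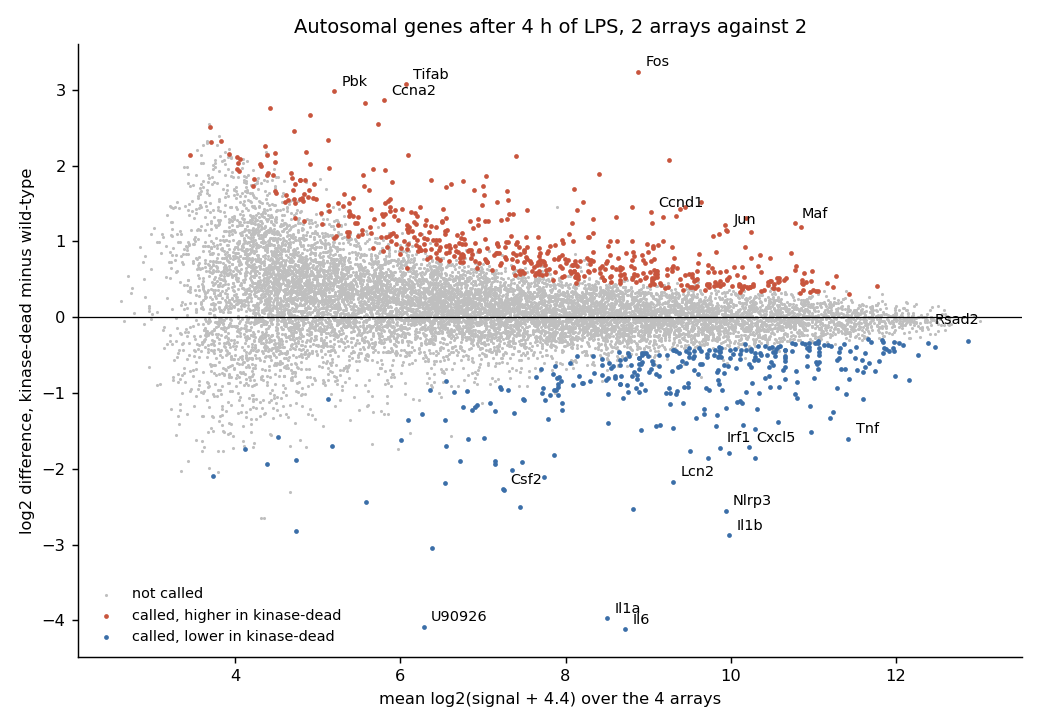
The log2 difference at LPS 4 h (KD minus WT, vertical axis) is plotted against the mean log2(signal + 4.4) over the 4 arrays for each of 12460 autosomal genes. The 557 genes called higher in KD (red) spread over low and high signals, whereas the 333 called lower (blue) lie mostly at high signal, with Il6, U90926 and Il1a at the bottom and Fos at the top.

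Several secreted cytokine genes were lower in KD, and Il6 and Il1a were among the lowest of all called genes. Of 28 cytokine genes tested, 10 were called lower and 0 higher, with a median difference of -0.74 beside 0.10 for all genes. Cytokine genes called lower numbered 10, 8, 9 and 8 with 1 of the 4 arrays left out. Il6 (chromosome 5), which encodes the acute-phase cytokine interleukin-6, measured 1722 and 1779 on the WT arrays and 106 and 88.6 on the KD arrays. Both KD arrays lay far below both WT arrays, a 17.3-fold difference (log2 -4.11 ± 0.35, adjusted p = 6.77e-07). Il1a (chromosome 2) encodes interleukin-1α, a ligand of the interleukin-1 receptor that can act from the cell surface or after release from dying cells. It measured 1395 and 1474 on the WT arrays and 80.6 and 94 on the KD arrays. The strains were again far apart (log2 -3.97 ± 0.44, adjusted p = 1.63e-05). Il1b, also on chromosome 2, encodes interleukin-1β and measured 2940.5 and 2547 on the WT arrays and 328.5 and 412 on the KD arrays (log2 -2.88 ± 0.18, adjusted p = 2.14e-08).

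Tnfsf9, the ligand of the T cell co-stimulator 4-1BB, measured 1150.0 and 1006.5 on the WT arrays and 140.4 and 237 on the KD arrays (log2 -2.53 ± 0.24, adjusted p = 1.91e-06). Csf2 encodes GM-CSF, a growth factor for myeloid cells, and measured 317 and 343 on the WT arrays and 66 and 63.5 on the KD arrays (log2 -2.27 ± 0.38, adjusted p = 0.00102). In both genes the KD arrays were well below the WT arrays. The anti-inflammatory cytokine gene Il10 measured 95.1 and 122 on the WT arrays and 25.2 and 10 on the KD arrays (log2 -2.44 ± 0.51, adjusted p = 0.00648). The call of Il10 was lost without WT array 2 or KD array 2. Of the called members with smaller differences, Tnf, the gene for tumour necrosis factor, was expressed highest and measured 4868 and 4727 on the WT arrays and 1625 and 1526 on the KD arrays (log2 -1.60 ± 0.14, adjusted p = 9.96e-07). Lif, a cytokine of the interleukin-6 family, and Ereg, a ligand of the epidermal growth factor receptor, differed by -1.92 ± 0.27 and -1.48 ± 0.17. Il15, a growth factor of natural killer cells, differed by -0.95 ± 0.20, a call lost without WT array 2, KD array 1 or KD array 2. Among the 18 members without a call, Il1rn, which encodes the interleukin-1 receptor antagonist, differed by -0.11 ± 0.11 and Il18 by 0.08 ± 0.18. Ifnb1, which encodes interferon-β, had signals of 19 and 32.7 on the WT arrays and 22.3 and 26.9 on the KD arrays, close to the array medians in both strains.

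The promoters of Il6 and Il1a, the cytokine genes with the lowest differences, are shown beside those of Rsad2 and Ifitm3, the antiviral genes with the highest WT signal at 4 h. They are printed because the first pair was strongly lower in KD and the second pair was not called. Each is the 250 bases before the RefSeq transcription start in assembly GRCm38.p6, written 5′ to 3′ on the gene's strand. Capitals mark matches, on either strand, to GGGANNTTCC (an NF-κB core), GAAANNGAAA (the core bound by interferon-activated factors) or TGANTCA (an AP-1 site), where N is any base.
Il6: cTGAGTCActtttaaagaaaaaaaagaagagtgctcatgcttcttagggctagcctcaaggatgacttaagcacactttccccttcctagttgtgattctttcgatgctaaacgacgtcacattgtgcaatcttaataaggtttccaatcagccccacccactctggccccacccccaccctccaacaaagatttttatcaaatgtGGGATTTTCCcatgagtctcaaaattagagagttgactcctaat
Il1a: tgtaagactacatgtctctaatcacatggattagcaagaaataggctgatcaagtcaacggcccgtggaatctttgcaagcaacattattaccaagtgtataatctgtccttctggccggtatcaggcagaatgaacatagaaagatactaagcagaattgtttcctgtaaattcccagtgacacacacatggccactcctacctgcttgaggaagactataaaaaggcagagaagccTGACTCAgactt
Rsad2: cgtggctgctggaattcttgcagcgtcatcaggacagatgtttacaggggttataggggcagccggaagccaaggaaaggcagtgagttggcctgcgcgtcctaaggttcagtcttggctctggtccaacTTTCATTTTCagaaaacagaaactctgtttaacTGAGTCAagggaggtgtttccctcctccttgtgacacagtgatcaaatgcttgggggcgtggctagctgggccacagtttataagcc
Ifitm3: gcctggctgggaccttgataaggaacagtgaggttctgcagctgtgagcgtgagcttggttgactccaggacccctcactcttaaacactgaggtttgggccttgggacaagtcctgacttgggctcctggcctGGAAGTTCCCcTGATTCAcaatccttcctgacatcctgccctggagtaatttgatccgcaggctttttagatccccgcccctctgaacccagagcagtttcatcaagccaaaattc
The cytokine gene windows lie at chr5:30012864-30013113 on the plus strand for Il6 and chr2:129309973-129310222 on the minus strand for Il1a. Those of the antiviral genes lie at chr12:26456453-26456702 on the minus strand for Rsad2 and chr7:141010745-141010994 on the minus strand for Ifitm3. Counted back from the start, the Il6 window held an NF-κB match whose outer base lies at -44 and an AP-1 match at -249, and the Il1a window an AP-1 match at -12. Rsad2 had an interferon-type match at -120 with an AP-1 match at -87, and Ifitm3 had an NF-κB match at -116 with an AP-1 match at -105. Over all 27025 promoters of the RefSeq table, 1.36% held the NF-κB letters, 3.46% the interferon letters and 7.82% the AP-1 letters. Over the 10037 tested autosomal genes with a promoter the shares were 1.49%, 3.27% and 5.91%. Among 263 genes called lower the shares were 2.28%, 5.7% and 10.6%, and among 435 called higher they were 2.07%, 5.06% and 5.98%. A match is a run of letters and not a measured site, and a window without one says only that these letters are not in it.

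Several genes of chemokines, which attract leukocytes, were lower in KD. Of 26 tested, 8 were called lower and 1 higher, with a median of -0.59. Lower calls numbered 6, 6, 6 and 6 with 1 of the 4 arrays left out, and higher calls 0, 0, 0 and 0. Cxcl5, a neutrophil attractant, measured 2207 and 2121 on the WT arrays and 718 and 598 on the KD arrays (log2 -1.72 ± 0.21, adjusted p = 5.21e-05). Ccl7, a monocyte attractant, measured 1175 and 1316 on the WT arrays and 537 and 534 on the KD arrays (log2 -1.21 ± 0.21, adjusted p = 0.00174). The KD arrays of both genes stayed below the WT arrays, and so did those of Cxcl3, which also attracts neutrophils, with 4544 and 4484 on the WT arrays and 2199.8 and 2059.8 on the KD arrays (log2 -1.08 ± 0.16, adjusted p = 0.000271). Ccl2, the main monocyte attractant of macrophages, measured 3785 and 3867 on the WT arrays and 2058 and 1739.5 on the KD arrays (log2 -1.01 ± 0.11, adjusted p = 1.26e-05). Ccl4, which attracts monocytes and T cells, measured 3469 and 3403 on the WT arrays and 1797 and 1809 on the KD arrays (log2 -0.93 ± 0.13, adjusted p = 0.000256). Cxcl1 differed by -0.83 ± 0.14. The smaller differences of Cxcl2 (-0.50 ± 0.13) and Ccl3 (-0.31 ± 0.08) were called with all arrays and lost without any 1 of the 4 arrays. Ccl6 was the member called higher (0.32 ± 0.08), with the same loss of its call. The interferon-inducible chemokine genes Cxcl10 (-0.31 ± 0.20, adjusted p = 0.449) and Ccl5 (-0.32 ± 0.09, adjusted p = 0.0515) were not called.

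Nlrp3, which encodes the sensor of the NLRP3 inflammasome, the complex that activates caspase-1 to mature interleukin-1β, was among the lowest genes. It measured 2671 and 2115 on the WT arrays and 402.5 and 400.1 on the KD arrays, so that both KD arrays lay far below either WT array. The difference was -2.55 ± 0.20 (adjusted p = 2.73e-07). In the list of 19 inflammasome and cell death genes, 4 were called lower and 2 higher, and the median was 0.07 (0.02, 0.11, 0.08 and 0.05 with 1 of the 4 arrays left out). With 1 of the 4 arrays left out 2, 2, 2 and 3 were called lower and 2, 2, 2 and 1 higher. Bcl2l11, which encodes the pro-apoptotic protein BIM, measured 1659 and 1626 on the WT arrays and 772 and 883.5 on the KD arrays (log2 -0.99 ± 0.10, adjusted p = 4.74e-06). Mefv, the gene for pyrin, measured 109 and 107 on the WT arrays and 41.9 and 24.4 on the KD arrays (log2 -1.62 ± 0.45, adjusted p = 0.0423). This call was lost without any 1 of the 4 arrays and without 2 of the other 8. Casp4, which encodes the caspase that binds LPS inside the cell, differed by -0.51 ± 0.13 and lost its call without WT array 1, WT array 2 or KD array 1. Pmaip1 (the pro-apoptotic NOXA, 0.84 ± 0.13) and Bcl2 (an inhibitor of apoptosis, 0.93 ± 0.16) were called higher, the latter not without KD array 2. With the probe set of median signal Bcl2l11 (-0.62, adjusted p = 0.278) and Bcl2 (0.43, adjusted p = 0.395) were not called.

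**Figure D2:**
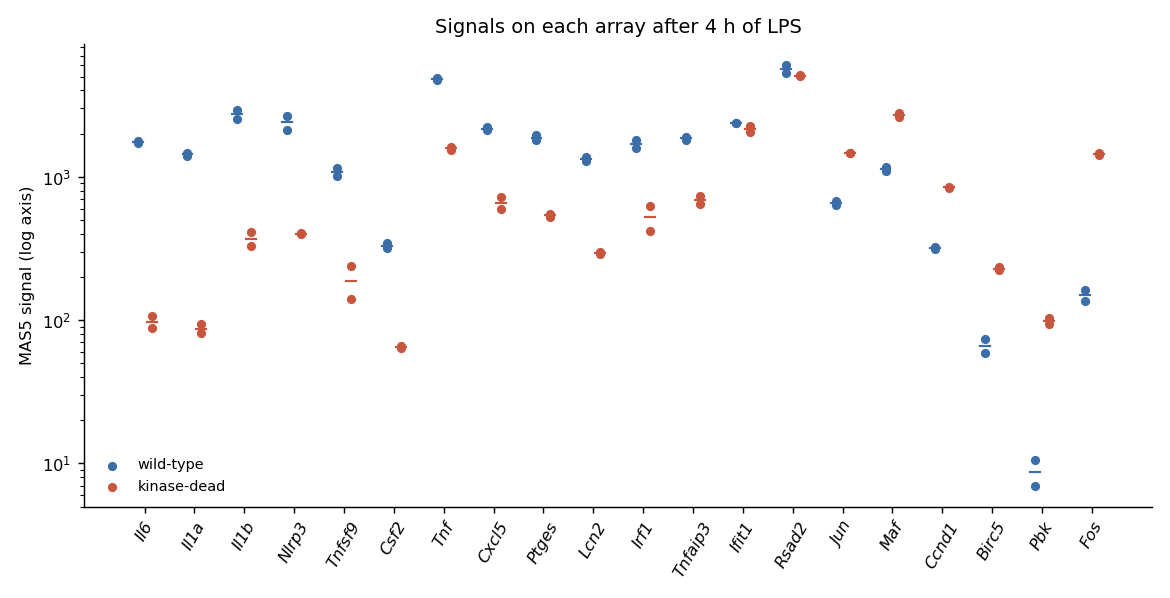
MAS5 signals (log axis) of 20 genes on the 2 WT arrays (blue) and 2 KD arrays (red) after 4 h of LPS, with bars at the mean of 2. Il6 to Tnfaip3 have both KD points below both WT points, Jun to Fos have both above, and for Ifit1 and Rsad2 the 4 points lie close together.

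Most tested genes of NF-κB subunits and of the feedback proteins that NF-κB induces were called lower in KD. Of 17 tested, 10 were called lower and 0 higher, the median was -0.65, and KD lay below WT without overlap for 16, beside 19.2% of all genes. Calls fell to 5, 4, 5 and 6 with 1 of the 4 arrays left out. Tnfaip3 encodes A20, an enzyme that edits ubiquitin chains and dampens the pathway, and measured 1893 and 1814 on the WT arrays and 649 and 731.5 on the KD arrays (log2 -1.42 ± 0.16, adjusted p = 1.82e-05). Tnfaip2, a TNF-induced gene, measured 1725 and 1612 on the WT arrays and 753 and 766 on the KD arrays (log2 -1.13 ± 0.16, adjusted p = 0.000271). Rel, which encodes the subunit c-Rel, measured 195 and 233 on the WT arrays and 93.2 and 82.1 on the KD arrays (log2 -1.24 ± 0.26, adjusted p = 0.0075). Its call was lost without WT array 2 or KD array 2. The subunit gene Rela, which encodes p65, differed by less (-0.61 ± 0.17, adjusted p = 0.0406) and lost its call without WT array 1, WT array 2 or KD array 1 and without 2 of the other 8. Nfkbiz and Nfkbie, genes of atypical and classical IκB proteins, were called at -0.81 ± 0.11 and -0.71 ± 0.11 with all arrays and in each of the 12 fits with 1 array left out. With the probe set of median signal Tnfaip3 (-1.50, adjusted p = 0.377) and Tnfaip2 (-0.76, adjusted p = 0.272) were not called. Neither were the list members Nfkbib (-0.17, adjusted p = 0.939) and Birc3 (-0.75, adjusted p = 0.0535). Nfkbia, which encodes IκBα, the inhibitor that is degraded and resynthesised at each round of signalling, measured 6619.5 and 5881 on the WT arrays and 5501 and 5447.5 on the KD arrays and was not called (log2 -0.19 ± 0.09, adjusted p = 0.277).

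Genes of the receptor complexes and of the kinases below them had smaller differences, between -0.66 and 0.52. Of 25 genes of the Toll-like receptor and MyD88 pathway, 1 was called higher and 3 lower, with a median of -0.20. The shares of all genes tested were 4.47% higher and 2.67% lower. Pathway calls with 1 of the 4 arrays left out were 1, 1, 1 and 1 lower and 1, 0, 0 and 1 higher. Tlr4, the LPS receptor, measured 854 and 806 on the WT arrays and 1254 and 1099 on the KD arrays (log2 0.50 ± 0.10, adjusted p = 0.00561), and lost its call without WT array 2 or KD array 1. The adaptor gene Myd88 measured 441 and 459.5 on the WT arrays and 276 and 316 on the KD arrays (log2 -0.60 ± 0.17, adjusted p = 0.0475). Myd88 stood at the threshold, and its call was lost without any 1 of the 4 arrays and without 4 of the other 8. Peli1, which encodes a ubiquitin ligase that acts on IRAK kinases, measured 1787 and 1746 on the WT arrays and 1178 and 1061 on the KD arrays (log2 -0.66 ± 0.12, adjusted p = 0.0023), with the call lost without KD array 2. Tab2, an adaptor of the kinase TAK1, differed by -0.43 ± 0.10, a call lost without WT array 1, WT array 2 or KD array 1. The probe set of median signal ended the calls of Tlr4 (0.61, adjusted p = 0.311) and Peli1 (-0.42, adjusted p = 0.289). Values without a call included Cd14, the LPS co-receptor (-0.13 ± 0.08), Ly96, which encodes the TLR4 partner MD-2 (-0.06 ± 0.14), Irak3, an inhibitory family member (-0.13 ± 0.13), Irak2 (-0.23 ± 0.16), Traf6 (-0.14 ± 0.28) and Ticam1 (-0.58 ± 0.30).

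Antiviral interferon-stimulated genes differed by -0.93 to 0.37 on their probe sets of highest mean, and several of the best known were not called. With its probe set of median signal 1 member, Parp14, differed by -1.69 (adjusted p = 0.000353). Of 40 tested, 5 were called lower and 0 higher, with a median of -0.15. With an array left out 2, 4, 2 and 4 of them were called lower. Rsad2, which encodes the antiviral enzyme viperin, measured 6022 and 5301 on the WT arrays and 5040.4 and 5106 on the KD arrays, and both KD arrays were below both WT arrays (log2 -0.16 ± 0.11, adjusted p = 0.49). Ifit1, an inhibitor of viral translation, measured 2383 and 2367 on the WT arrays and 2244 and 2062 on the KD arrays, with KD narrowly below WT (log2 -0.14 ± 0.14, adjusted p = 0.65). Ifitm3, which blocks virus entry, measured 4666 and 4471 on the WT arrays and 4931 and 5379.8 on the KD arrays, with KD above WT (log2 0.17 ± 0.08, adjusted p = 0.286). Mx1 differed by -0.45 ± 0.22 (adjusted p = 0.284), with 1307 and 1304.5 on the WT arrays and 898.5 and 1008 on the KD arrays. The members that were called lower included Oasl1 at 1138 and 1151.5 on the WT arrays and 580.4 and 615 on the KD arrays (log2 -0.93 ± 0.15, adjusted p = 0.000564). Ifih1, which encodes the RNA sensor MDA5, was lower at 2102 and 1971 on the WT arrays and 1252 and 1319 on the KD arrays (log2 -0.66 ± 0.12, adjusted p = 0.00194). Parp9 (-0.76 ± 0.16) and its relative Parp14 (-0.56 ± 0.11) lost their calls without WT array 1 or KD array 1, and Slfn2 (-0.42 ± 0.12) lost it without any 1 of the 4 arrays and without 2 of the other 8.

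Interferon regulatory factors and interferon-inducible GTPases included stronger differences. Of 16 tested, 6 were called lower and 1 higher, with a median of -0.17 (-0.44, -0.06, -0.12 and -0.56 with 1 of the 4 arrays left out). When 1 of the 4 arrays was left out, 3, 4, 2 and 4 were called lower. Irf1, a transcription factor of interferon and NF-κB responses, measured 1801 and 1589.9 on the WT arrays and 417 and 623 on the KD arrays (log2 -1.72 ± 0.16, adjusted p = 2.61e-06). Gbp3, a guanylate-binding protein of cell-autonomous defence, measured 1990.4 and 1903 on the WT arrays and 839.6 and 838 on the KD arrays (log2 -1.21 ± 0.16, adjusted p = 0.000125). Gbp2 (-0.82 ± 0.15), Gbp6 (-0.999 ± 0.23), Gbp7 (-0.62 ± 0.12) and Irgm2 (-0.59 ± 0.16) were also called lower. Each lost the call without KD array 1, Gbp7 also without WT array 1, and Gbp6 and Irgm2 without any 1 of the 4 arrays. Irf8, a factor of macrophage lineage, was called higher at 168 and 179.9 on the WT arrays and 289 and 311 on the KD arrays (log2 0.77 ± 0.14, adjusted p = 0.00248). Its call was lost with the probe set of median signal (0.54, adjusted p = 0.127).

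Among 16 cytokine signal transducers and inhibitors, 6 were called lower and 1 higher, with a median of -0.25 (-0.11, -0.37, -0.26 and -0.25 with 1 of the 4 arrays left out). Those called lower were 1, 2, 1 and 3 with 1 of the 4 arrays left out. Stat5a, which carries signals of GM-CSF and related cytokines, measured 1704 and 1536 on the WT arrays and 762 and 737 on the KD arrays (log2 -1.11 ± 0.15, adjusted p = 0.000132). Its call was kept in each fit with 1 array left out. Cish and Socs3, inhibitors that cytokine signalling induces against itself, differed by -2.82 ± 0.70 (adjusted p = 0.0228) and -1.35 ± 0.34 (adjusted p = 0.0238). Cish signals were 64.3 and 68.3 on the WT arrays and 1.6 and 12.4 on the KD arrays, with a KD value under the pseudocount of 4.4. This call was lost without WT array 1, WT array 2 or KD array 1. Socs3 measured 175 and 118 on the WT arrays and 51.1 and 56.1 on the KD arrays, and its call was lost without any 1 of the 4 arrays. In the list of 34 cytokine and chemokine receptors 3 were called in each direction, beside 4.47% higher and 2.67% lower of all genes tested. With the probe set of median signal Il6ra (0.12, adjusted p = 0.959) and Csf2ra (0.59, adjusted p = 0.248) were no longer called higher. Il17ra (-0.26, adjusted p = 0.915) and Tnfrsf1b (-0.07, adjusted p = 0.95) were no longer called lower. Ccrl2, a receptor that binds chemerin without signalling, was the lowest called receptor at 2495 and 2292.5 on the WT arrays and 665 and 649 on the KD arrays (log2 -1.86 ± 0.15, adjusted p = 3.74e-07). Tnfrsf11b, which encodes the decoy receptor osteoprotegerin, was the highest called receptor at 81.8 and 111 on the WT arrays and 288 and 219.9 on the KD arrays (log2 1.36 ± 0.26, adjusted p = 0.00351). That call was lost without WT array 1 or KD array 1, and with the probe set of median signal (0.86, adjusted p = 0.633). Receptor calls were 1, 2, 1 and 1 higher and 1, 1, 1 and 1 lower with 1 of the 4 arrays left out.

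Inflammatory enzymes and effectors held 9 genes called lower and 2 called higher among 28, with a median of -0.34. The lower calls were 6, 7, 6 and 6 with 1 of the 4 arrays left out. Ptges, which encodes the synthase that makes prostaglandin E2, measured 1963 and 1791 on the WT arrays and 525 and 551 on the KD arrays (log2 -1.79 ± 0.16, adjusted p = 1.21e-06). Ptgs2, the cyclooxygenase upstream of it, differed by less on its probe set of highest mean. That set measured 7091 and 6014 on the WT arrays and 5089.8 and 4867.5 on the KD arrays (log2 -0.39 ± 0.09, adjusted p = 0.0126). Ptgs2 lost its call without WT array 1, KD array 1 or KD array 2. With their probe sets of median signal Ptgs2 differed by -2.72 (adjusted p = 3.2e-05) and Ptges by -1.78 (adjusted p = 0.0135). Lcn2, which encodes the iron-siderophore binder lipocalin-2, measured 1294 and 1379 on the WT arrays and 296.5 and 290.1 on the KD arrays (log2 -2.17 ± 0.13, adjusted p = 2.14e-08). Cfb, complement factor B, measured 282 and 258 on the WT arrays and 52.9 and 90 on the KD arrays (log2 -1.90 ± 0.22, adjusted p = 2.54e-05). The strains were apart in these 2 genes without LPS as well. Slc7a2, an arginine transporter, and Arg2, a mitochondrial arginase, were also called lower (-1.07 ± 0.15 and -0.93 ± 0.11), and so was Saa3, a serum amyloid (-0.78 ± 0.10). Without LPS 9 of the 28 were called lower and 4 higher. Besides Lcn2 and Cfb, those lower there included Saa3 (-1.44), Ptgs2 (-0.93) and Arg2 (-0.39). On their probe sets of highest mean Saa3 and Ptgs2 were further apart without LPS than at 4 h. Slc7a2 was not called with its probe set of median signal (-1.43, adjusted p = 0.176). Acod1, which makes itaconate, measured 6817 and 5954 on the WT arrays and 5695 and 6153 on the KD arrays and was not called (log2 -0.11 ± 0.09, adjusted p = 0.589). Nos2, the inducible nitric oxide synthase, had low signals of 98.1 and 63.3 on the WT arrays and 45.5 and 45.4 on the KD arrays (log2 -0.74 ± 0.65, adjusted p = 0.607). Alox5ap and Alox5, of leukotriene synthesis, were the members called higher (0.45 ± 0.08 and 0.90 ± 0.25), and Alox5 lost its call without WT array 2, KD array 1 or KD array 2.

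Of 31 protease, plasminogen and coagulation genes, 5 were called lower and 2 higher, with a median of -0.08 (-0.06, -0.09, -0.07 and -0.04 with 1 of the 4 arrays left out). In the fits with 1 of the 4 arrays left out 5, 4, 5 and 4 were called lower. Serpinb2, the plasminogen activator inhibitor of macrophages, measured 426 and 436 on the WT arrays and 107 and 134 on the KD arrays (log2 -1.81 ± 0.29, adjusted p = 0.000789). Adamts4, a protease that cuts matrix proteoglycans, measured 3731 and 3104 on the WT arrays and 1076 and 1302.5 on the KD arrays (log2 -1.52 ± 0.24, adjusted p = 0.000756). Plaur, the urokinase receptor, and Mmp13, a collagenase, were lower by similar amounts (-1.02 ± 0.16 and -0.92 ± 0.12). F10, coagulation factor X, differed by -1.19 ± 0.25 with the call lost without WT array 2 or KD array 2. Probe sets of median signal gave no call for Adamts4 (-1.57, adjusted p = 0.165) and F10 (-1.12, adjusted p = 0.116). The 2 members called higher, Mmp19 (0.70 ± 0.13) and Thbd (0.61 ± 0.15), which encodes thrombomodulin, lost the call without WT array 1 or KD array 1, and Thbd also without either of the other arrays. In antigen presentation and co-stimulation, 4 of 23 genes were called lower and 0 higher, beside 2.67% lower and 4.47% higher of all genes tested. Cd40, the receptor of T cell help, was the lowest at 2929 and 3053 on the WT arrays and 1297 and 1344 on the KD arrays (log2 -1.18 ± 0.16, adjusted p = 0.000117). Cd83 (-0.57 ± 0.10), Cd274, which encodes PD-L1 (-0.54 ± 0.10), and Icam1 (-0.45 ± 0.11) were the others. Cd83 lost its call without WT array 1, and Icam1 without any 1 of the 4 arrays. Of the 23, 2, 3, 3 and 3 were called lower with 1 of the 4 arrays left out. Zfp36, which encodes tristetraprolin, a protein that destabilises cytokine mRNAs, was lower at 975 and 961 on the WT arrays and 534 and 520.3 on the KD arrays (log2 -0.87 ± 0.11, adjusted p = 9.82e-05). Its list of 19 mRNA decay regulators had 3 called lower and 1 higher, and 1, 1, 1 and 1 lower with 1 of the 4 arrays left out.

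Immediate early genes went in both directions: of 31 immediate early and MAP kinase phosphatase genes, 4 were called higher and 4 lower, with a median of -0.12 (-0.03, -0.20, -0.19 and -0.17 with 1 of the 4 arrays left out). Fos (chromosome 12), an AP-1 subunit, was among the genes with the highest differences and measured 163 and 136 on the WT arrays and 1416 and 1467 on the KD arrays. Both KD arrays lay far above both WT arrays, a 9.44-fold difference (log2 3.24 ± 0.12, adjusted p = 9.65e-12). Its AP-1 partner Jun was also higher, at 634 and 679.9 on the WT arrays and 1457 and 1474 on the KD arrays (log2 1.15 ± 0.09, adjusted p = 1.39e-07). Dusp6, a phosphatase of the kinase ERK, measured 225 and 297 on the WT arrays and 512 and 531 on the KD arrays (log2 1.00 ± 0.13, adjusted p = 5.71e-05). Klf4, a transcription factor of monocytes, was called higher at 0.76 ± 0.16, a call lost without WT array 2 or KD array 1 and with the probe set of median signal (0.61, adjusted p = 0.0675). The genes called lower were Nr4a3, Csrnp1, Ier3 and Dusp4. Csrnp1, a nuclear factor named after its cysteine and serine content, measured 212 and 186 on the WT arrays and 45.8 and 54.6 on the KD arrays (log2 -1.90 ± 0.20, adjusted p = 7.93e-06). Ier3, an immediate early gene of survival control, measured 1223 and 1209 on the WT arrays and 485 and 473.5 on the KD arrays (log2 -1.34 ± 0.15, adjusted p = 1.35e-05). Dusp4, another phosphatase of MAP kinases, differed by -0.72 ± 0.11. Nr4a3, an orphan nuclear receptor, measured 430.5 and 394.5 on the WT arrays and 74.3 and 63.6 on the KD arrays (log2 -2.51 ± 0.40, adjusted p = 0.000769). The probe set of median signal for this gene gave the opposite direction, a difference of 1.40. Egr1 (-0.10 ± 0.16), Junb (-0.80 ± 0.30) and Dusp1 (-0.42 ± 0.18) were not called.

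**Figure D3:**
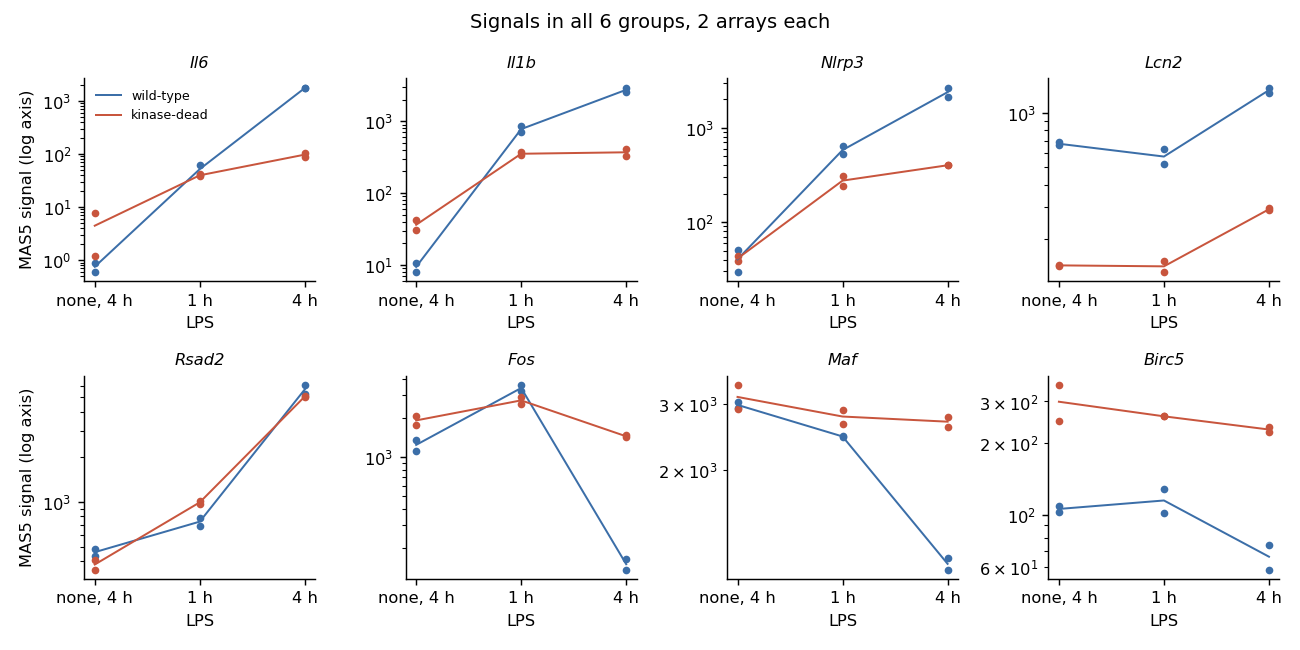
MAS5 signals (log axes) of 8 genes on the 12 arrays: WT (blue) and KD (red) kept 4 h without LPS or with LPS for 1 h or 4 h, with lines through the means of 2 arrays. At 4 h Il6, Il1b, Nlrp3 and Lcn2 are lower in KD and Fos, Maf and Birc5 higher, and the strain gap of Lcn2 and Birc5 is present in all 3 conditions.

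Many DNA replication and mitosis genes were higher in KD. Of 34 tested, 17 were called higher and 0 lower, and their median difference of 0.97 was the highest of the lists with at least 10 members tested. Under quantile normalization 12 were called higher, with a median of 0.85. Higher calls numbered 6, 15, 7 and 7 with 1 of the 4 arrays left out. Ccnd1, which encodes cyclin D1 of the growth factor-driven entry into the cycle, measured 325 and 314 on the WT arrays and 851 and 836 on the KD arrays (log2 1.39 ± 0.10, adjusted p = 1.39e-07). Birc5, which encodes survivin, a protein of chromosome segregation, measured 58.6 and 74.2 on the WT arrays and 234 and 223 on the KD arrays (log2 1.73 ± 0.20, adjusted p = 2.25e-05). Rrm2, the subunit of ribonucleotide reductase that limits nucleotide supply, measured 89.6 and 78.5 on the WT arrays and 278 and 271 on the KD arrays (log2 1.66 ± 0.22, adjusted p = 0.000103). All 3 had both KD arrays above both WT arrays and kept the call in each fit with 1 array left out, as did Cdk1 (1.27 ± 0.18), Top2a (1.48 ± 0.21) and Ccna2 (2.86 ± 0.47). Ccna2, cyclin A2, measured 5 and 40.9 on the WT arrays and 151 and 140.4 on the KD arrays, with the WT arrays well apart and both below KD. With the probe set of median signal Top2a (-0.76, adjusted p = 0.458), Ccna2 (0.97, adjusted p = 0.0611) and Mcm2 (1.03, adjusted p = 0.0791) were not called. The same held for the list members Gins2 (-0.01, adjusted p = 0.999), Rrm1 (0.43, adjusted p = 0.658), Cdt1 (0.25, adjusted p = 0.501) and Cenpe (0.88, adjusted p = 0.439). The helicase genes Mcm2 (1.13 ± 0.25), Mcm4 (0.58 ± 0.15), Mcm6 (0.96 ± 0.17) and Mcm7 (0.98 ± 0.22) were called, each with a loss of the call without WT array 1 and without at least 1 of the KD arrays. Mki67, the gene of the proliferation marker Ki-67, did not share the direction, at 333 and 322 on the WT arrays and 227 and 209 on the KD arrays (log2 -0.58 ± 0.24, adjusted p = 0.196).

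Several genes of macrophage identity were higher in KD: of 35 tested, 6 were called higher and 3 lower, with a median of 0.06 (0.06, 0.11, 0.14 and 0.04 with 1 of the 4 arrays left out). With 1 of the 4 arrays left out, 3, 5, 4 and 3 were called higher and 1, 3, 2 and 2 lower. Maf, a transcription factor of resting tissue macrophages, measured 1096 and 1174 on the WT arrays and 2768 and 2609 on the KD arrays (log2 1.24 ± 0.09, adjusted p = 1.04e-07). Fcgr3, an activating Fc receptor, was higher at 1019 and 1005 on the WT arrays and 1662 and 1583 on the KD arrays (log2 0.68 ± 0.09, adjusted p = 7.15e-05). Fcgr2b, the inhibitory one, was lower at 966.5 and 851 on the WT arrays and 442 and 477 on the KD arrays (log2 -0.97 ± 0.18, adjusted p = 0.00242), a call lost without WT array 1. The integrin genes Itgax (1.30 ± 0.25) and Itgam (1.50 ± 0.37) had low signals. The call of Itgax was lost without WT array 1 or KD array 2, and that of Itgam without WT array 1, KD array 1 or KD array 2. Mrc1, the mannose receptor, was lower at 559.9 and 532 on the WT arrays and 302 and 287 on the KD arrays (log2 -0.88 ± 0.14, adjusted p = 0.00064). Adgre1, which encodes the macrophage marker F4/80, measured 2716 and 2546 on the WT arrays and 2754 and 2944.5 on the KD arrays and was not called (log2 0.11 ± 0.09, adjusted p = 0.56). Without LPS 7 of the 35 macrophage identity genes were called higher and 2 lower. In lysosome genes 3 of 19 were called higher and 0 lower, with 1, 3, 2 and 1 higher with 1 of the 4 arrays left out. Among them Atp6v0d2, a subunit of the proton pump, had 84.6 and 92.4 on the WT arrays and 276 and 256 on the KD arrays (log2 1.54 ± 0.16, adjusted p = 6.19e-06). Without LPS 5 of the 19 lysosome genes were called higher and 0 lower. In sterol and lipid genes 2 of 29 were called higher and 1 lower, beside 4.47% higher and 2.67% lower of all genes tested. Dhcr7, the last enzyme of cholesterol synthesis, measured 211 and 219 on the WT arrays and 497 and 440.5 on the KD arrays (log2 1.11 ± 0.12, adjusted p = 1.68e-05). Scd1, a fatty acid desaturase, differed by 0.51 ± 0.10 (lost without WT array 2 or KD array 2) and the cholesterol exporter Abca1 by -0.69 ± 0.12. Abca1 was not called with its probe set of median signal (-0.47, adjusted p = 0.502).

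**Figure D4:**
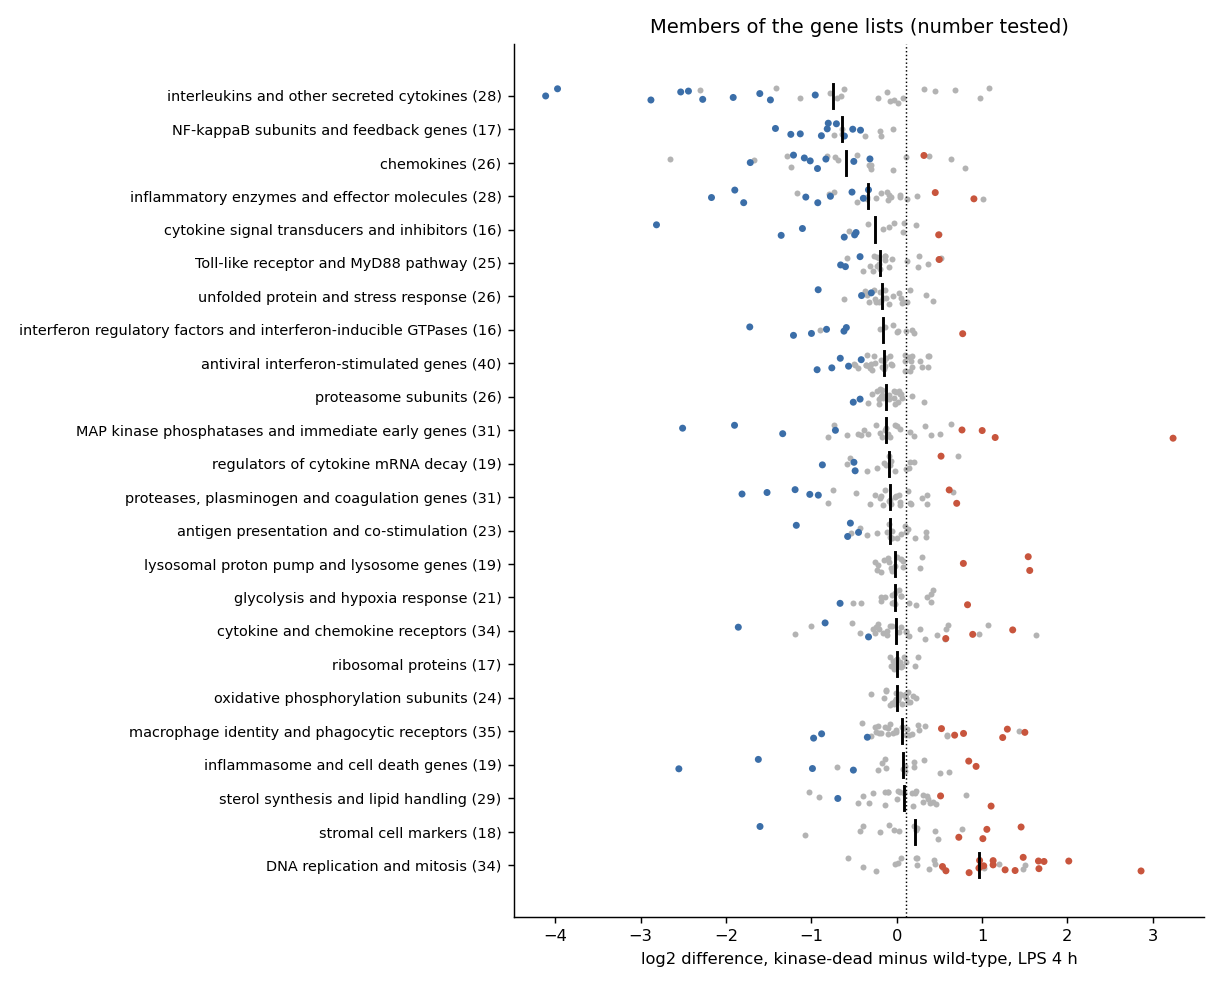
Log2 differences at LPS 4 h (KD minus WT) for the tested members of each gene list with at least 10 tested, called members in blue (lower) or red (higher), other members in grey, list medians as black bars and the median of all genes, 0.10, as a dotted line. Cytokines, NF-κB genes and chemokines have the lowest medians (-0.74, -0.65 and -0.59) and DNA replication and mitosis the highest (0.97).

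In each list of general metabolism and protein turnover 0 to 3 genes were called. For ribosomal proteins (17 tested, median 0.01) and oxidative phosphorylation subunits (24 tested, median 0.01) limma called 0 members. The most strongly expressed were Rpl4 (0.00 ± 0.09) and Cox7a2 (-0.03 ± 0.08). Glycolysis and hypoxia genes had 1 of 21 called in each direction, Ankrd37 (0.83 ± 0.20, lost without WT array 1, KD array 1 or KD array 2) and Ndrg1 (-0.66 ± 0.11, lost with the probe set of median signal). Of 26 proteasome subunit genes 2 were called lower, Psmb6 (-0.51 ± 0.10) and Psmc6 (-0.43 ± 0.11), and 0 of them without WT array 1 or KD array 1. Psmc6 also lost its call without WT array 2 or KD array 2, and with the probe set of median signal. Of 26 unfolded protein and stress genes 3 were called lower, and 0 were without WT array 1 or KD array 1. The share of all tested genes called lower was 2.67%.

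Markers of other cell types were measured beside these groups. The summed signal of 35 macrophage markers was 52283 and 48901 in WT and 49400 and 50624 in KD. Of these, 32 were above the array median on all 4 arrays. Of 21 stromal markers 19 were above the median on all 4 arrays, with sums of 11379 and 10758 in WT and 12703 and 12848 in KD. Of the 18 tested, 4 were called higher and 1 lower. The stromal genes called higher were Mgp at 302 and 232 on the WT arrays and 673 and 800.2 on the KD arrays (log2 1.46 ± 0.19, adjusted p = 7.46e-05), a matrix inhibitor of calcification, with Col6a1 (1.01 ± 0.16), Col6a2 (1.06 ± 0.19) and Thbs2 (0.73 ± 0.18), and Postn was called lower (-1.60 ± 0.29). Col6a2 lost its call without WT array 1, Thbs2 without WT array 1 or KD array 2 and with the probe set of median signal, and Postn without KD array 2. Stromal calls were 2, 4, 4 and 3 higher and 1, 1, 1 and 0 lower with 1 of the 4 arrays left out. Neutrophil and precursor markers summed to 897 and 997 in WT and 2076 and 1849 in KD, with 2 of 12 above the median on all 4 arrays. The sum was carried by S100a8, a calcium-binding protein of neutrophils and inflammatory macrophages, at 742 and 902 on the WT arrays and 1901 and 1689.7 on the KD arrays (log2 1.13 ± 0.12, adjusted p = 1.08e-05). The granule genes Elane (-0.17 ± 0.62) and Camp (-0.37 ± 0.45) were not called. T and NK markers (1 of 14 above the median on all 4 arrays), B cell markers (1 of 10), dendritic cell markers (3 of 9), erythroid markers (1 of 6) and mast cell markers (1 of 9) had 0 called members. In this order only 6, 4, 4, 3 and 4 members were tested. Their median differences were -0.35, 0.66, 0.03, 0.66 and 0.53, beside 0.10 for all genes. Whether the share of these cells played a part in the gene differences was not tested. In bulk samples fewer cells of a type and less RNA per cell cannot be told apart.

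The strain difference was also measured on other arrays, without LPS and after 1 h. Without LPS 804 genes were called (6.45%), 356 higher and 448 lower in KD. At 1 h 197 were called (1.58%), 96 higher and 101 lower. Of the 557 genes higher at 4 h, 83 were also called higher without LPS (14.9% of the 557 and 23.3% of the 356), and 17 were called lower there. At 1 h 58 were also called higher (10.4% of the 557 and 60.4% of the 96) and 2 lower. Of the 333 genes lower at 4 h, 58 were called lower without LPS (17.4% of the 333 and 12.9% of the 448) and 8 higher. At 1 h 52 were called lower (15.6% of the 333 and 51.5% of the 101) and 2 higher. These 3 comparisons use separate arrays and share the fit's estimate of the spread. The count without LPS fell to 164 without WT unstimulated replicate 1, and the count at 1 h to 80 without KD LPS 1 h replicate 2. A total of 36 genes were called higher and 23 lower in all 3 conditions.

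Lcn2 was the lowest of the genes lower in all conditions. Without LPS it measured 661 and 689.6 on the WT arrays and 142 and 145 on the KD arrays. Its difference there was -2.20 ± 0.13, beside -1.98 ± 0.13 at 1 h and -2.17 ± 0.13 at 4 h. Cfb differed by -2.06 ± 0.22 without LPS, -2.06 ± 0.22 at 1 h and -1.90 ± 0.22 at 4 h. Saa3, Postn, Mrc1, Ccl2, Ccl7, Cxcl5 and Ereg belonged to the same set, and Cxcl5 had its lowest difference at 1 h (-3.57 ± 0.21). Among genes higher in all conditions, S100a8 differed by 1.29 ± 0.12, 1.33 ± 0.12 and 1.13 ± 0.12 without LPS, at 1 h and at 4 h. Rrm2 (1.74 ± 0.22, 1.55 ± 0.22 and 1.66 ± 0.22), Birc5 (1.44 ± 0.20, 1.16 ± 0.20 and 1.73 ± 0.20) and Ccnd1 (0.80 ± 0.10, 0.56 ± 0.10 and 1.39 ± 0.10) were in this set too. Of the DNA replication and mitosis list, 12 of 34 were called higher without LPS and 7 at 1 h, and 1 was called lower without LPS.

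**Figure D5:**
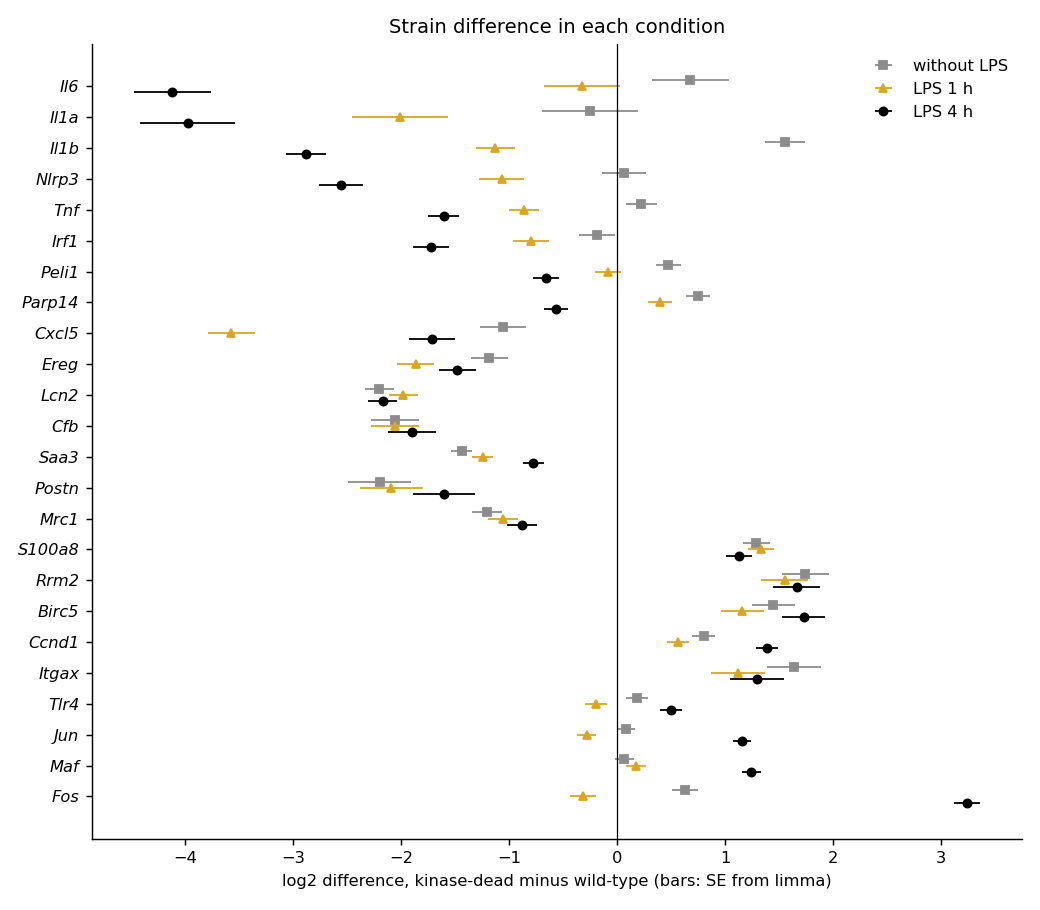
Log2 differences, KD minus WT, of 24 genes without LPS (grey squares), at 1 h (yellow triangles) and at 4 h (black circles), with bars for the SE of the fit. Il6, Il1b, Nlrp3, Tnf and Irf1 reach their lowest value at 4 h, Lcn2 and Cfb stay near -2 in all conditions, and Jun, Maf and Fos are highest at 4 h.

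Whether the strain difference at 4 h differed from the one without LPS was tested as an interaction, which shares the 4 h arrays with the main comparison. It was called for 515 genes (4.13%), 332 of them positive and 183 negative. Without the variance trend 7 were called, among them Il6, Il1b, Csrnp1 and Fos. Without KD array 1, WT array 1 or WT unstimulated replicate 1 the count was 184, 188 or 188. Il1b measured 8 and 10.8 on the WT arrays and 30.8 and 41.6 on the KD arrays without LPS, where KD was higher (1.55 ± 0.18). At 4 h KD was lower, and the interaction was -4.43 ± 0.26, adjusted p = 3.01e-08. Il6 signals without LPS were 0.9 and 0.6 on the WT arrays and 7.7 and 1.2 on the KD arrays, too low to rank, and its interaction was -4.79 ± 0.50, adjusted p = 6.06e-05. Nlrp3 was at 51 and 29.7 on the WT arrays and 39 and 43.3 on the KD arrays without LPS, with the strains overlapping, and its interaction was -2.62 ± 0.29, adjusted p = 8.88e-05. Fos measured 1117 and 1359.5 on the WT arrays and 1773 and 2049 on the KD arrays without LPS. At 1 h Fos was at 3230.0 and 3558 on the WT arrays and 2537 and 2914.5 on the KD arrays, so the WT signal was lowest at 4 h (interaction 2.61 ± 0.17, adjusted p = 9.22e-08). In Maf the WT signal was also lowest at 4 h, from 3024 and 2929.6 on the WT arrays and 3352 and 2896.5 on the KD arrays without LPS (interaction 1.18 ± 0.13, adjusted p = 8.33e-05). Lcn2, whose difference was there without LPS, had an interaction of 0.03 ± 0.19 (adjusted p = 0.97). Parp14 and Peli1 were higher in KD without LPS (0.75 ± 0.11 and 0.47 ± 0.12) and lower at 4 h, with interactions of -1.31 ± 0.15 and -1.13 ± 0.17. Stromal markers had 7 positive interactions of 18 and 0 negative, and 8 of the 18 were called lower in KD without LPS.

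The remaining genes at the ends of the range are given by the naming rule alone. Among the 15 lowest, U90926, an unnamed transcript, measured 335 and 300.3 on the WT arrays and 10.4 and 19.8 on the KD arrays (log2 -4.09 ± 0.37, adjusted p = 1.55e-06). Epha4, an ephrin receptor, differed by -2.19 ± 0.34. Shisa3 (-3.05 ± 0.71), Rasgrp1 (-2.28 ± 0.65) and Itgb8 (-2.10 ± 0.47) were called with all arrays but not without WT array 1, WT array 2 or KD array 1. The last 2 were not called without KD array 2 either. With the probe set of median signal Epha4 (-0.18, adjusted p = 0.917) and Rasgrp1 (-0.04, adjusted p = 0.988) were not called. Shisa3 measured 211 and 263 on the WT arrays and 14.9 and 39.1 on the KD arrays. On the other 8 arrays its signals were 0.3 to 5.7, so it was tested only through its signal at 4 h. With a pseudocount of 1 U90926 differed by -4.37 and Il6 by -4.16, the opposite order of their differences at 4.4. Among the 15 highest, Tifab, which encodes a relative of the NF-κB pathway adaptor TIFA, measured 21.1 and 16.6 on the WT arrays and 167 and 216 on the KD arrays (log2 3.07 ± 0.23, adjusted p = 1.56e-07). Pbk, a mitotic kinase, measured 10.5 and 7 on the WT arrays and 104 and 93.9 on the KD arrays (log2 2.99 ± 0.33, adjusted p = 1.67e-05). Zhx2, a zinc finger and homeobox factor, had 15.8 and 11.3 on the WT arrays and 108 and 137.5 on the KD arrays (log2 2.83 ± 0.33, adjusted p = 2.53e-05). These 3 had WT signals under 23.4, the median of all values, a range in which the difference depends on the pseudocount. Fos differed by 3.24 and Pbk by 2.99, whereas with a pseudocount of 1 Fos differed by 3.27 and Pbk by 3.38. The WT means of the genes that follow, the rest of the 15 highest, were also under 23.4, and the size of their differences depends on the pseudocount in the same way. Nrg2 measured 8.5 and 6.6 on the WT arrays and 85.6 and 59.1 on the KD arrays (log2 2.67 ± 0.34), and Gm11517 24.7 and 12.2 on the WT arrays and 101 and 153 on the KD arrays (log2 2.55 ± 0.35). Both kept their calls in each fit with 1 array left out. Sox7 measured 4 and 6.1 on the WT arrays and 37.8 and 43.1 on the KD arrays (log2 2.25 ± 0.34) and Iqgap3 9.9 and 8.5 on the WT arrays and 62.2 and 52.5 on the KD arrays (log2 2.18 ± 0.38), with their calls kept in the same fits. Their probe sets of median signal gave no call, and neither did that of Tifab: Sox7 (0.48, adjusted p = 0.745), Iqgap3 (1.49, adjusted p = 0.141) and Tifab (1.05, adjusted p = 0.434). Rab38 measured 6.3 and 7.2 on the WT arrays and 67.6 and 47.5 on the KD arrays and lost its call without KD array 1. Dcstamp was at 24.1 and 4 on the WT arrays and 57.5 and 95.4 on the KD arrays and lost it without WT array 2 or KD array 2. In Ankrd34a, Smim38, Brca2 and Esco2 both WT arrays were under the pseudocount of 4.4, so the signals are given without a fold. Ankrd34a measured 4.3 and 3.3 on the WT arrays and 61.1 and 42.8 on the KD arrays, and Smim38 1.2 and 0.9 on the WT arrays and 26.6 and 26.4 on the KD arrays. Brca2 was at 1.2 and 2.7 on the WT arrays and 23.8 and 31.2 on the KD arrays, and Esco2 at 0.9 and 2.1 on the WT arrays and 25.9 and 23.8 on the KD arrays. All 4 had KD above WT, and each lost its call without KD array 1 and without KD array 2. Without a filter on signal another probe set stood for Smim38, and its difference had the opposite direction (-0.86).

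Genes next to Irak4 on chromosome 15 were counted on their own. Of the 20 genes on each side in the gene order of GRCm38.p6, 26 were tested, and 0 were called at 4 h, with a median of 0.18 beside 0.10 for all genes. Without LPS 2 of them were called lower, Pus7l (-0.59) and Scaf11 (-0.60), and 0 higher. By chromosome, the share of genes called at 4 h ran from 5.78% on chromosome 7 to 8.78% on chromosome 14, and it was 7.21% on chromosome 15.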

How the data were processed

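Per the labels' protocols, total RNA of the cultures was extracted with RNeasy kits, labelled with the NuGEN Ovation protocol and hybridised to 12 arrays, 2 for each of 6 groups. The authors deposited a linear signal intensity for each probe set, computed with MAS5 per the submitters' processing notes, with version and filters not given in the sources used here. Every array had a trimmed mean of 150 (2% off each end), so no further scaling was applied. Of 45101 probe sets, the 27931 tested were those that exceeded the median of their array on 2 or more arrays. A gene could thus be tested through the 2 arrays of 1 group in which it was high. Signals were transformed to log2(signal + 4.4), the pseudocount being the 20th percentile over the whole table. With limma 3.58.1 in R 4.3.3, 1 mean was fitted for each of the 6 groups, and eBayes was run with its trend option, in which the prior variance depends on the mean signal. The steps were tested on simulated data. Adjusted p-values are Benjamini-Hochberg values over the 27931 probe sets, and SE is that of the fit. The number of arrays limits the precision.

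Symbols came from the platform annotation and chromosomes from the GRCm38.p6 gene table: 34945 probe sets had 1 symbol, 932 several (not named) and 9160 none. For each gene the tested probe set of highest mean was used, and a set whose identifier marks possible cross-hybridisation was taken only if there was no other. Of 499 called genes with several tested probe sets, 139 had another called in the same direction and 2 (Gfra2 and Marcks) in the opposite one. The gene lists have no test: they are given as counts and medians beside all genes. Named genes were the 15 highest and 15 lowest called genes whose replicates did not overlap, up to 4 called members with the largest difference per list (up to 6 for cytokines, chemokines, antiviral genes and the receptor pathway), the strongest member by signal of a list without calls, and the 5 highest and 5 lowest interactions. Other genes were named after their values were seen. The comparison, the lists and the rules were chosen with earlier results of these data known. The results were recomputed with quantile normalization, without a filter and with a stricter one (75th percentile), with a pseudocount of 1 or of 23.4, a prior without a trend, a fit of the comparison's arrays only, the replicate number as a block, the probe set of median signal, and leaving out each array in turn.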

Additional observations from a re-analysis of the deposited data

Results flagged for a closer look

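Of the 116 genes named by rule, 52 had a strain difference at 4 h of LPS that differed from the one without LPS. The test was limma's test of the difference itself (the interaction, KD minus WT at 4 h less KD minus WT without LPS, in log2). The rule took most genes by their 4 h difference or by the interaction, so this count follows partly from selection. Over all genes tested 4.13% were called. Genes named outside the rule are not listed here, though Lif (-2.01), Tnf (-1.83), Jun (1.07) and Dusp6 (0.92) were called too. Interleukins, their inducible inhibitors and growth factors had negative values: Il6 (-4.79), Il1b (-4.43), Il1a (-3.72), Csf2 (-2.56), Tnfsf9 (-2.47), Cish (-4.11) and Socs3 (-1.86). Inflammasome, NF-κB and cell death genes were Mefv (-2.85), Nlrp3 (-2.62), Rel (-1.64), Tnfaip3 (-1.22) and Bcl2l11 (-0.953). Negative values were also found in genes of receptors and co-stimulation, Ccrl2 (-1.68), Cd40 (-1.27), Cd83 (-0.641), Fcgr2b (-1.24) and Plaur (-1.17). Signalling and regulatory genes with negative values were Csrnp1 (-2.4), Peli1 (-1.13), Tab2 (-0.519), Stat5a (-0.872), Zfp36 (-0.819), Rc3h1 (-0.776) and Irf1 (-1.53). Interferon-inducible genes among them were Parp14 (-1.31), Oasl1 (-1.03), Ifih1 (-0.945) and Parp9 (-0.85). Enzymes, secreted factors and housekeeping subunits with negative values were Serpinb2 (-2.22), F10 (-1.69), Ptges (-1.61), Ccl4 (-1.21), Slc7a2 (-1.08), Psmc6 (-0.641), Psmb6 (-0.553) and Rpl4 (-0.491). Rpl4 was higher in KD without LPS (0.49 ± 0.09) and did not differ at 4 h (0.00 ± 0.09). Without LPS 10 of the 17 ribosomal protein genes tested were called higher and 0 lower. U90926 had -3.32. Positive values were found for Fos (2.61), Maf (1.18), Tifab (1.84), Sox7 (2.05), Scd1 (0.534), Dhcr7 (1.47), Col6a1 (1.49), Ebf1 (1.51) and Tnfrsf11b (2.33). Ebf1 was lower in KD without LPS (-1.09 ± 0.25) and was not called at 4 h (0.42 ± 0.25). The 5 highest interactions called were Nxn (3.78), Top3a (3.39), Gm11517 (3.26), Cxxc5 (3.12) and Slc2a8 (3.07), and Nrg2 had 2.77. Of the 5 highest, Slc2a8, Cxxc5, Top3a and Nxn had signals under 75 on all 8 arrays concerned, and only Gm11517 and Nxn were called at 4 h, with the call of Nxn (adjusted p = 0.0461) lost in 7 of the 12 fits with 1 array left out and after quantile normalization. Under the same test 48 of the 52 were still called after quantile normalization, 46 with the replicate block, 37 with the probe set of median signal (3 had the other sign there) and 5 without the variance trend. With 1 array left out, the number still called was lowest, at 30, without WT LPS 4 h replicate 1 and without KD LPS 4 h replicate 1.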

How the results depend on the processing

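Quantile normalization, either filter, either other pseudocount, the replicate block and the probe set of median signal gave 637 to 1025 genes called at 4 h, beside 890. Without the variance trend 321 genes were called at 4 h (222 higher and 99 lower), 42 without LPS, 10 at 1 h and 7 in the interaction, and 50 of the 106 called named genes lost the call. Among genes described above, this setting ended the calls of Ccl7, Cxcl3, Cxcl1, Ifih1, Cd274, Dusp4, Alox5ap, Col6a1, Adamts4, Abca1 and Ccna2. No single left-out array had ended these calls. With only the 4 arrays of the comparison 374 genes were called without LPS and 1049 at 4 h (561 higher and 488 lower, 53.5% higher beside 62.6%). The probe set of median signal left 494 without LPS and 296 in the interaction, and it reversed Nr4a3 (1.40), Zfp36l2 (-0.923) and Dcp1a (0.786); 26 of the 106 called named genes lost the call. Among genes described above, the call was also lost by Rela, Myd88, Irgm2, Alox5 and Esco2 under quantile normalization, and by Mefv, Myd88, Slfn2, Cish, Socs3, Shisa3, Rasgrp1 and Itgb8 with a pseudocount of 1. Myd88 and Slfn2 lost it with the replicate block, and Cxcl2, Ccl3, Ccl6, Mefv, Rela, Myd88, Slfn2, Socs3, Alox5, Rasgrp1, Rab38 and Esco2 without a filter. Without a filter Smim38 reversed (-0.862). The filter does not change the estimate of a probe set, so another probe set then stood for this gene. Why the other calls were lost was not tested. With each array left out in turn, the count at 4 h ran from 349 to 998, genes called higher from 215 to 620, genes called lower from 123 to 378, the count without LPS from 164 to 839, at 1 h from 80 to 254 and in the interaction from 184 to 532. Of the 106 called named genes, 54 kept the call in all 12 of these fits. Medians of 10 lists changed sign under some alternative. The lists of T and NK, erythroid and mast cell markers kept 0 tested members under the stricter filter and have no value there. The replicate numbers did not pair the arrays (correlations of deviations between -0.0682 and 0.0401), and with the replicate block 846 genes were called at 4 h, 734 without LPS, 174 at 1 h and 468 in the interaction. With 2 arrays a group, and 22.2% of tested genes with a WT mean under 23.4 at 4 h, small differences of dim genes were not detectable.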
